A study of Homo sapiens with 7 samples.

Results

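The genes described here are the receptors of the TNF receptor superfamily and the ligands of the TNF superfamily, read in 7 Hodgkin lymphoma (HL) cell lines. The list names 43 genes, 28 receptors and 15 ligands. A gene was read only from probe sets, groups of short probes against a transcript, that the array annotation gives to that gene alone. This left 41 members with a value, 27 receptors and 14 ligands, among the 19775 genes so measured on the array. CD40LG, the ligand of CD40, had no such probe set and was not analysed here. TNFRSF6B, a soluble decoy receptor, shares its probe set with a readthrough gene and was also not analysed here.

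The groups are U-HO1, SUP-HD1, L-540, L-428, L-1236, HDLM-2 and KM-H2, established HL cell lines of human origin whose labels name no treatment. Each line was measured by 1 oligonucleotide array hybridised with biotin-labelled copies of its total RNA. No line had a replicate, so no difference between lines was tested, and each value below is that of a single array. All 7 lines are tumour lines grown in culture, and normal cells were not part of this series.

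Ligands of this superfamily assemble as trimers on the cell surface or after release, and cluster their receptors. Receptors without a death domain bind TRAF adaptor proteins and feed into NFkB signalling, receptors with a death domain can also start caspase-driven apoptosis, and decoy receptors bind ligand without a full signal. Hodgkin/Reed-Sternberg (HRS) cells, the malignant cells of HL, are known for the receptor CD30, the product of TNFRSF8, and for constant NFkB activity.

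Levels are the deposited log2 values, on which a difference of 1 is a doubling. A level counted as above background when it exceeded the value that 95% of 107 olfactory receptor probe sets did not pass on the same array, genes that lymphoid cells are not known to use. This background was 5.59 in L-1236 and 4.49 to 4.86 in the other lines. Different probe sets for the same gene, each set against its own mean, differed within a line by an SD of 0.54, which served as the technical spread. A pair of arrays stood apart. In U-HO1 the difference between the 3′ and 5′ control probe sets of beta-actin was 2.11, against 0.06 to 0.54 elsewhere, its 18S ribosomal RNA level was 11.12 against 5.23 to 7.06, and its spread between probe sets was 0.82. The L-1236 array had 8609 genes above background against 10554 to 11636 in the other lines, and a spread of 0.67. Its values also lay on a narrower scale, with an SD over probe sets of 1.88 against 2.15 to 2.17. Ranges that rest on these lines are therefore also given without them. The methods name 2 laboratories as sources of the arrays and do not assign the lines, so laboratory and line cannot be told apart.

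The label of the cells was checked against marker genes. All 9 HRS cell markers on the list were above background in at least 1 line and 6 of them in all 7 lines, against 73.3% and 34.6% of all genes. Of 5 B-cell markers, 3 were above background in at least 1 line, namely PAX5 in 6 lines, CD22 in 5 and CD79A in 3. PAX5 was highest in U-HO1, at 8.18, and CD22 in HDLM-2, at 6.81. MS4A1 and CD79B, which mark mature B cells, were above background in none. Of 5 T-cell markers all were above background in at least 1 line and none in all 7, with CD3D at 8.89 in KM-H2 and CD2 at 8.95 in HDLM-2. Of 4 myeloid markers 2 were above background in at least 1 line. The log2 of the summed marker level ran from 11.97 to 13.94 for HRS cells, 7.18 to 8.57 for B cells, 6.34 to 9.12 for T cells and 5.50 to 7.90 for myeloid cells. The lists differ in length and their probe sets in brightness, so these sums compare lines within a list and not cell types. The part of these markers in the levels of the members was not tested. Each array read a whole culture, so fewer cells with a transcript and less transcript per cell cannot be told apart.

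Promoter windows, the 250 bases before the start of a transcript, were read from RefSeq for 28 of the 43 members. Shown here are those of the receptors with the largest ranges between lines, TNFRSF8 (chr1:12063053-12063302, plus strand) and TNFRSF9 (chr1:7940840-7941089, minus strand). The others are those of genes that were far higher or lower in 1 line or a few, namely CD27 (chr12:6443642-6443891, plus strand), TNF (chr6:31575315-31575564, plus strand), LTB (chr6:31582426-31582675, minus strand) and TNFSF9 (chr19:6530776-6531025, plus strand). Positions are those of GRCh38.p14, and each sequence is written 5′ to 3′ in the direction of its gene. Capitals mark matches to the AP-1 motif TGANTCA or to the NF-kB consensus, both searched on both strands.
TNFRSF8: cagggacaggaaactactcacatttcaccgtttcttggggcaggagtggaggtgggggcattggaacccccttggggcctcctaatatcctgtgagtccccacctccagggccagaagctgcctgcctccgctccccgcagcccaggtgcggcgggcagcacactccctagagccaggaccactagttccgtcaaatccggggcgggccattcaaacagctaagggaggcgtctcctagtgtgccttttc
TNFRSF9: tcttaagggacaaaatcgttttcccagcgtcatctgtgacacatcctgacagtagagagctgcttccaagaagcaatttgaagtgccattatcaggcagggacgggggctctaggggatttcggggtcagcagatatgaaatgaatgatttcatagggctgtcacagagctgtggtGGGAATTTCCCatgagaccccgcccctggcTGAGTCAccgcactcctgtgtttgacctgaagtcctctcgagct
CD27: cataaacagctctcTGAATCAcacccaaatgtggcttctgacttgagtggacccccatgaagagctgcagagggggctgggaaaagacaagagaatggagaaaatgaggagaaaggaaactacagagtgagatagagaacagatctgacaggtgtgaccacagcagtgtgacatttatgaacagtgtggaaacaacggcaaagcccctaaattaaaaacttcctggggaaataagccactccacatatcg
TNF: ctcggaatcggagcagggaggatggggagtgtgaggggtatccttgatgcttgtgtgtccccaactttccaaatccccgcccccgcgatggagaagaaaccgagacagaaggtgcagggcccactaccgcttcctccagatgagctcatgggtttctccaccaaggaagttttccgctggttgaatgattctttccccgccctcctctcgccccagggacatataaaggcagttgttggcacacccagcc
LTB: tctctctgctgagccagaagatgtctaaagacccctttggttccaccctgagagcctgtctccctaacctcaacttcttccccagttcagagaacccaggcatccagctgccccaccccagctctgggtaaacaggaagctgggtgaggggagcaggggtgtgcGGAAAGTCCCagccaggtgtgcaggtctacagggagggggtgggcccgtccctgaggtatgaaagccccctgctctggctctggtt
TNFSF9: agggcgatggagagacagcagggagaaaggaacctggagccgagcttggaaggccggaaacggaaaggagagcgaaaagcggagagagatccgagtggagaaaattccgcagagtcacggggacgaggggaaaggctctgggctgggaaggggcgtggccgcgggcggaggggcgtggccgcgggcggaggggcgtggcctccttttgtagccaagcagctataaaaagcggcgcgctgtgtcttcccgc

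In the TNFRSF9 window the AP-1 letters begin 44 bases before the transcript start, and matches to the NF-kB consensus begin 74 and 73 bases before it, overlapping on opposite strands of the same letters. The LTB window holds an NF-kB match that begins 86 bases before the start. The CD27 window holds an AP-1 match that begins 236 bases before it. The AP-1 letters occurred in 1801 of the 27305 windows of the table, or 6.6%, and the NF-kB consensus in 1380, or 5.05%. Among the 28 member windows, 5 held the AP-1 letters (TNFRSF9, TNFSF15, FAS, CD27 and TNFSF14) and 4 the NF-kB consensus (TNFRSF14, TNFRSF9, LTB and TNFSF14). A match is a run of letters in the window and was not tested as a binding site, and the absence of a match in the windows of TNFRSF8, TNF and TNFSF9 concerns only these letters.

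Most members were above background somewhere, and most of those differed widely between the lines. Of the 41 measured members, 34 (82.9%) were above background in at least 1 line, against 73.3% of all genes. Above background in all 7 lines were 12 members (29.3%), against 34.6% of all genes. These 12 were the receptors TNFRSF9, TNFRSF10B, TNFRSF11A, TNFRSF12A, TNFRSF13C, TNFRSF14, FAS, CD40 and LTBR and the ligands LTA, TNFSF10 and CD70. In no line were TNFRSF11B, TNFRSF17, NGFR, EDA2R, TNFSF11, TNFSF18 and FASLG above background.

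The range of a gene is its highest minus its lowest line. Of the 34 members above background in at least 1 line, 23 (67.6%) had a range of 2 or more, against 50.1% of all genes so filtered. Without L-1236 and U-HO1 it was 18 of 31 (58.1%), against 30.7%. The median range was 2.99 over the members and 2.00 over all genes. By role, 14 of 23 receptors and 9 of 11 ligands reached a range of 2. The member just inside this limit was TNFRSF1A, at 2.12, and the one just outside was TNFSF4, at 1.98. A range whose lowest line is below background is not exact, and with such levels raised to background TNFRSF1A, TNFRSF10A, TNFRSF10D and TNFSF15 had ranges of 1.26, 1.88, 1.38 and 1.85, leaving 19 members at 2 or more. The share of all genes with levels so raised is not given, so 19 has no counterpart in the 50.1%. These shares describe the arrays at hand and carry no test.

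**Figure D1:**
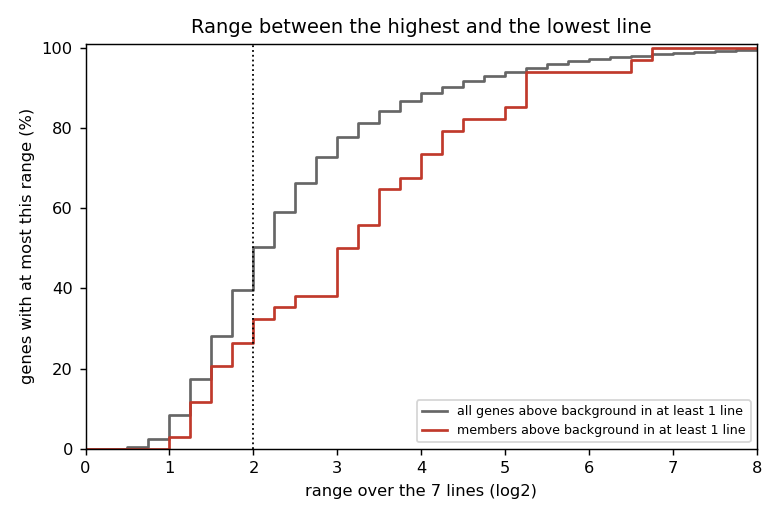
Cumulative share of genes (y axis, %) with at most a given range between the highest and the lowest of the 7 HL cell lines (x axis, log2), for the 34 members and for all 14495 genes above background in at least 1 line. The dotted line marks a range of 2, and the curve of the members lies to the right of that of all genes over most of the axis, with medians of 2.99 and 2.00.

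**Figure D2:**
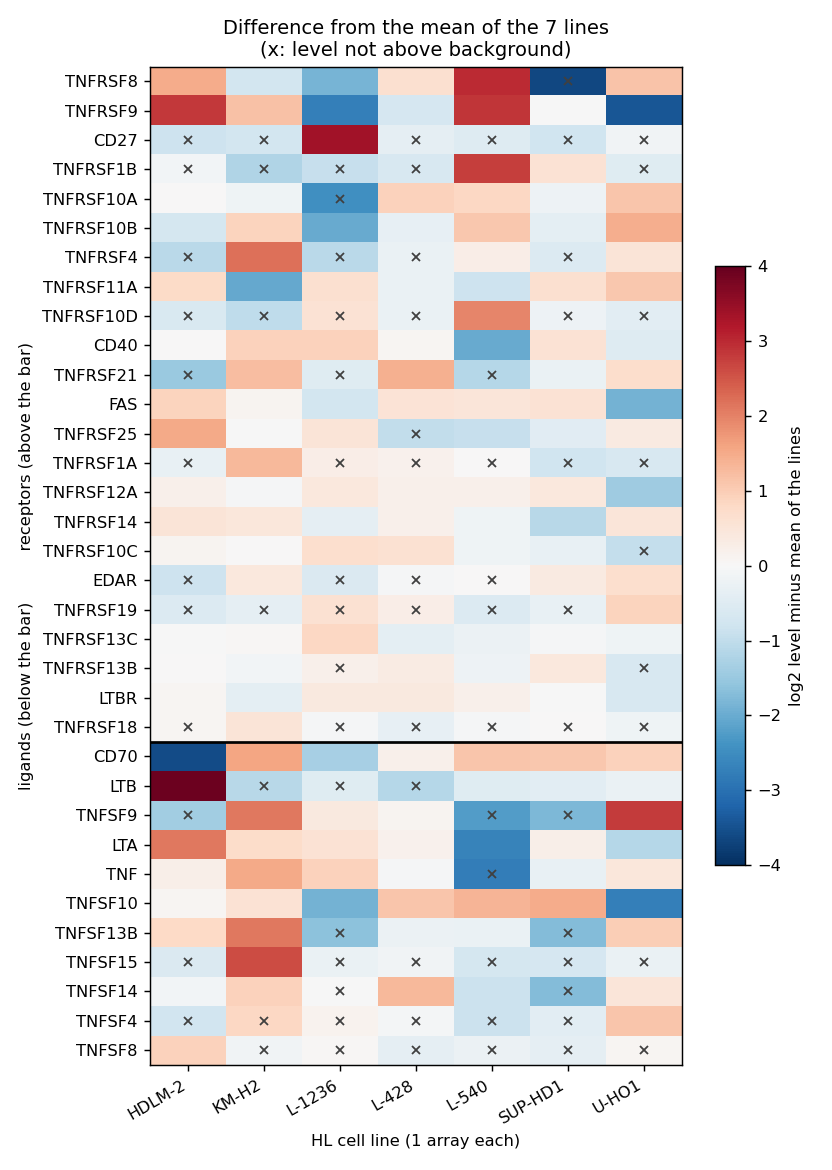
Log2 level of each of the 34 members minus its mean over the 7 HL cell lines (colour, red above and blue below the mean), with receptors above the bar and ligands below it, each sorted by range, and a cross where the level was not above background. TNFRSF8, with a range of 6.63, and TNFRSF9, with 6.28, head the receptors, and CD70, with 5.16, heads the ligands.

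TNFRSF8 encodes CD30, a receptor without a death domain that signals through TRAF proteins. Its level was 10.99 in L-540, 9.47 in HDLM-2, 9.15 in U-HO1, 8.64 in L-428, 7.25 in KM-H2, 6.13 in L-1236 and 4.36 in SUP-HD1. Every line but SUP-HD1 was thus above background, with L-1236 near it. The range of 6.63 was the largest of any member. The level of L-540 was at least 90.8-fold that of SUP-HD1, where the lower value is bounded by the background. HDLM-2 and U-HO1 were closer to each other than the technical spread. TNFRSF8 was read by 1 probe set, so no second reading was at hand.

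TNFSF8 encodes CD153, the ligand of CD30. It stood at 5.29 in HDLM-2, above background, and at 4.01 to 4.46 in the other 6 lines, below background in each. The other 2 probe sets of TNFSF8 were below background in all 7 lines, including HDLM-2. CD30 and its ligand were therefore both above background in HDLM-2 only, CD30 alone in U-HO1, L-540, L-428, L-1236 and KM-H2, and neither in SUP-HD1.

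TNFRSF9 encodes 4-1BB (CD137), a costimulatory receptor best known from activated T cells. Its level was 11.32 in L-540, 11.30 in HDLM-2, 9.63 in KM-H2, 8.44 in SUP-HD1, 7.81 in L-428, 5.74 in L-1236 and 5.04 in U-HO1. L-540 and HDLM-2 could not be ordered, and L-1236 and U-HO1 were just above background. L-540 was 77.7-fold U-HO1, a range of 6.28, which was 3.51 without L-1236 and U-HO1. At the other probe sets of the gene L-540 was again highest, at 9.62 and 7.47, followed by HDLM-2 at 8.58 and 7.13, with L-1236 and U-HO1 below background at each. The SD between the 3 probe sets was 0.66.

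TNFSF9, the ligand of 4-1BB, was above background in 4 of the 7 lines. It stood at 8.40 in U-HO1, 7.73 in KM-H2, 6.0 in L-1236, 5.72 in L-428, 4.21 in HDLM-2, 3.82 in SUP-HD1 and 3.38 in L-540. The last 3 of these lines were below background, and the first was at least 14.8-fold L-540. Receptor and ligand were both above background in KM-H2, L-1236, L-428 and U-HO1, and the receptor alone in HDLM-2, L-540 and SUP-HD1. HDLM-2 and L-540, the lines with the highest TNFRSF9 levels, thus had TNFSF9 below background, while KM-H2 was high in both. No correlation is given over 7 single arrays of which 2 stood apart.

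**Figure D3:**
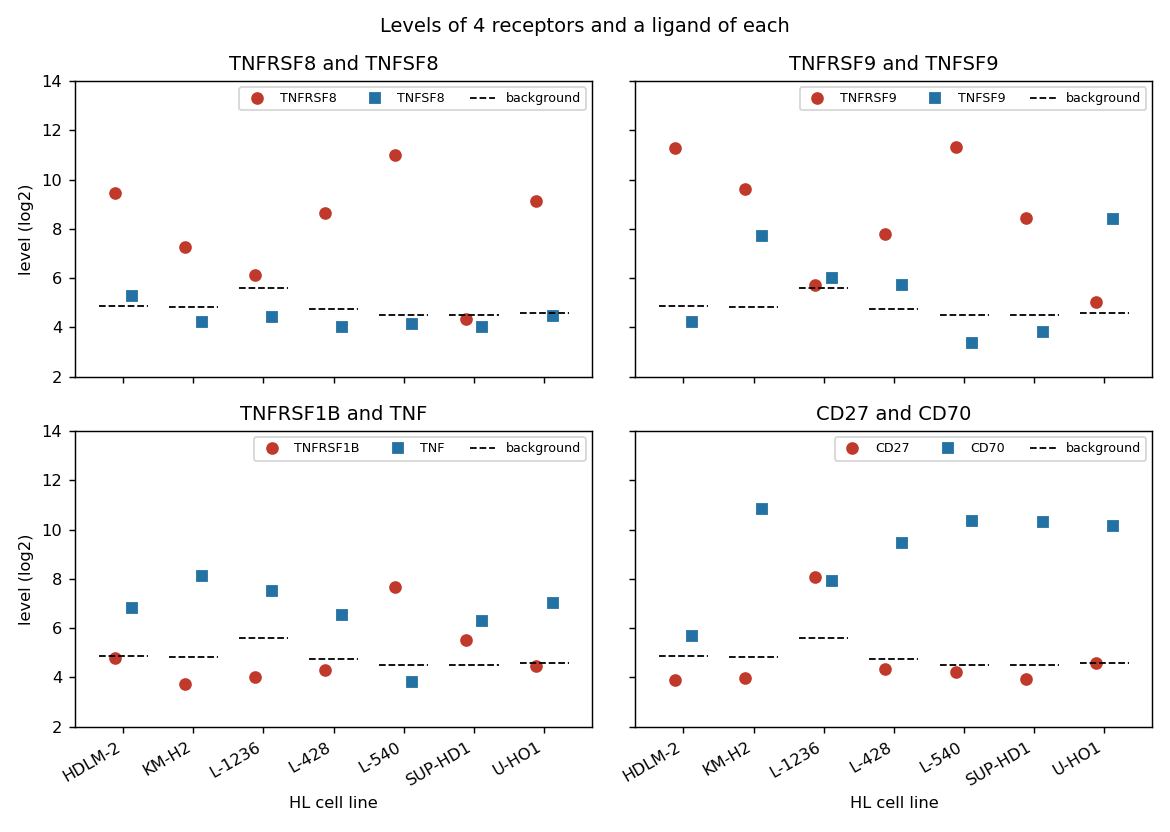
Log2 level of 4 receptors (red circles) and a ligand of each (blue squares) in each of the 7 HL cell lines, 1 array each, with the background of each array dashed. TNFSF8 clears the background in HDLM-2 alone, CD27 in L-1236 alone, and TNF is below it in L-540 alone. Heights compare lines within a gene, not a receptor with its ligand, since probe sets differ in brightness.

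CD40, a costimulatory receptor of B cells and antigen-presenting cells, was above background in all lines. Its level was 9.51 in KM-H2, 9.49 in L-1236, 9.16 in SUP-HD1, 8.67 in L-428, 8.59 in HDLM-2, 8.07 in U-HO1 and 6.55 in L-540. L-540 was the lowest line and KM-H2 stood 7.78-fold above it, while the range without L-540 was 1.44. At the other 3 probe sets of CD40 the level of L-540 was 3.82, 4.37 and 2.65, below background each time, and U-HO1 was below it at 1 of them. The ligand of CD40 was not analysed here, so this pair has no state.

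CD70, a ligand found on activated lymphocytes, was above background in every line. Its level was 10.83 in KM-H2, 10.37 in L-540, 10.32 in SUP-HD1, 10.16 in U-HO1, 9.46 in L-428, 7.92 in L-1236 and 5.67 in HDLM-2. HDLM-2 was lowest, and KM-H2 stood 35.8-fold above it, a range of 5.16 with or without L-1236 and U-HO1. L-540, SUP-HD1 and U-HO1 lay within the technical spread of each other.

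CD27, the receptor of CD70 and a marker of memory B cells, was above background in L-1236 alone. Its level there was 8.07, against 4.59 in U-HO1, 4.36 in L-428, 4.22 in L-540, 3.99 in KM-H2, 3.92 in SUP-HD1 and 3.90 in HDLM-2. L-1236 was at least 9.25-fold HDLM-2. The range of 4.17 became 0.69 without L-1236, so it rests on this array, which also had the highest background. CD27 and CD70 were both above background in L-1236, and CD70 alone in the other 6 lines.

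OX40, encoded by TNFRSF4, is a costimulatory receptor of T cells. TNFRSF4 was above background in KM-H2 at 7.01, in U-HO1 at 5.33 and in L-540 at 5.09, and at 3.73 to 4.54 in the others. A second probe set of TNFRSF4 was below background in all lines, at 3.82 to 4.65. The readings in KM-H2, U-HO1 and L-540 thus rest on a probe set whose name ends in _x_at, a sign that its probes can match other transcripts. TNFSF4, the ligand of OX40, passed background only in U-HO1, where it was at 5.09, with KM-H2 at 4.80, just under the background of that array. TNFRSF18 (GITR), which lies next to TNFRSF4 with no protein-coding gene between, was at 4.86 in KM-H2, barely above background at either of its 2 probe sets, and below background elsewhere, and its ligand TNFSF18 was below background in all lines.

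TNF and LTA, which encode tumour necrosis factor and lymphotoxin alpha, are neighbouring genes, and both were lowest in L-540. The TNF level was 8.10 in KM-H2, 7.52 in L-1236, 7.03 in U-HO1, 6.83 in HDLM-2, 6.53 in L-428, 6.30 in SUP-HD1 and 3.82 in L-540. L-540 was below background, and KM-H2 stood at least 12-fold above it. Without L-540 the range of TNF fell from 4.28 to 1.80. The LTA level was 10.69 in HDLM-2, 9.31 in KM-H2, 9.15 in L-1236, 8.80 in SUP-HD1, 8.76 in L-428, 7.45 in U-HO1 and 5.90 in L-540. All lines were above background here, and HDLM-2 stood 27.7-fold above L-540.

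LTB, which follows TNF in the genome and encodes the membrane anchor of the lymphotoxin heterotrimer, stood apart in HDLM-2. Its level was 9.79 in HDLM-2 and 4.71 to 5.59 in the other 6 lines, of which L-540, SUP-HD1 and U-HO1 were above background. HDLM-2 was at least 32.9-fold L-428, and without HDLM-2 the range fell from 5.08 to 0.88. The second probe set of LTB gave another order, with L-1236 at 5.91 and HDLM-2 at 5.59 the highest, and SUP-HD1 at 5.10 also above background.

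The receptors of TNF passed background in few lines. TNFRSF1A, the death-domain receptor of TNF, was above background in KM-H2 alone, at 5.75, with the others at 3.63 to 4.71. TNFRSF1B, the TNF receptor without a death domain, was at 7.69 in L-540 and 5.52 in SUP-HD1, and at 3.73 to 4.81 in the other 5 lines, below background in each. L-540 was at least 7.2-fold KM-H2 for TNFRSF1B, and the range without L-540 was 1.79. TNFRSF1B is the neighbour of TNFRSF8, and L-540 was the highest line for both. L-540, the line with the highest TNFRSF1B level, was the only line with TNF below background, so TNF and a measured TNF receptor were both above background only in KM-H2, through TNFRSF1A, and in SUP-HD1, through TNFRSF1B.

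LTBR, the receptor of the lymphotoxin heterotrimer and of LIGHT, differed little, from 4.67 in U-HO1 to 5.69 in L-428, and was above background in all lines. It barely passed in U-HO1, where the background was 4.59, in KM-H2, at 4.91 against 4.84, and in L-1236, at 5.68 against 5.59. A further LTBR probe set, of the _x_at kind, stood at 6.77 in L-428 and 2.72 to 5.34 in the others, giving a range of 4.05 in place of 1.02. Of the other 2 probe sets of LTBR, 1 was above background in all lines but HDLM-2 and 1 in no line. TNFRSF14 (HVEM), a receptor that binds LIGHT and lymphotoxin alpha, passed background in every line, lowest in SUP-HD1 at 5.80 and highest in HDLM-2 at 7.44. TNFSF14, which encodes LIGHT, was at 6.75 in L-428, 6.39 in KM-H2, 5.95 in U-HO1, 5.43 in L-1236, 5.34 in HDLM-2, 4.58 in L-540 and 3.73 in SUP-HD1. Only L-1236 and SUP-HD1 were below background for it, and L-428 was at least 4.8-fold SUP-HD1. The second TNFSF14 probe set was above background only in U-HO1, at 4.70.

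FAS, the death receptor CD95, was above background in every line. Its level was 10.92 in HDLM-2, 10.60 in SUP-HD1, 10.56 in L-428, 10.52 in L-540, 10.12 in KM-H2, 9.30 in L-1236 and 8.14 in U-HO1. U-HO1 was lowest and HDLM-2 6.87-fold above it. Without L-1236 and U-HO1 the range fell from 2.78 to 0.80, so the spread of FAS lies in the arrays that stood apart. At the other 3 probe sets used for the spread U-HO1 was again lowest, at 8.38, 7.36 and 6.32. A further FAS probe set, the only one not of the _x_at or _s_at kind, was at 3.99 to 5.06 and above background in L-428 alone. The gene of its ligand, FASLG, was at 2.97 to 3.99 and below background in all 7 lines.

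TRAIL, encoded by TNFSF10, is a ligand that can start apoptosis through death receptors. Its level was 9.52 in SUP-HD1, 9.40 in L-540, 9.16 in L-428, 8.62 in KM-H2, 8.13 in HDLM-2, 6.15 in L-1236 and 5.31 in U-HO1. The first 3 lines lay within the technical spread, and SUP-HD1 was 18.5-fold U-HO1. Without L-1236 and U-HO1, the 2 lowest lines at all 3 probe sets, the range fell from 4.21 to 1.39. At the other probe sets U-HO1 was not above background, at 4.54 and 4.59, and L-1236 was below it at the latter, at 4.33.

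Of the TRAIL receptors that signal death, TNFRSF10B (DR5) was above background in all lines and TNFRSF10A (DR4) in all but L-1236. TNFRSF10B was at 9.76 in U-HO1, 9.39 in L-540, 9.20 in KM-H2, 7.97 in L-428, 7.90 in SUP-HD1, 7.60 in HDLM-2 and 6.27 in L-1236. The place of U-HO1 depended on the probe set, since it was at 6.04 and 5.43 at 2 others, where L-540 was at 8.11 and 8.10, and a further probe set was below background in all lines. TNFRSF10A was at 7.47 in U-HO1, 7.29 in L-428, 7.19 in L-540, 6.38 in HDLM-2, 6.19 in KM-H2, 6.16 in SUP-HD1 and 3.90 in L-1236. L-1236 was the lowest line at all 3 TNFRSF10A probe sets and below background at each, at 4.61 and 4.54 at the other 2. U-HO1 and L-428 lay within the technical spread, and at the other 2 probe sets L-428 was highest, at 6.45 and 6.93, with U-HO1 at 5.56 and 5.58. Without L-1236 the range of TNFRSF10A fell from 3.57 to 1.31.

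The membrane decoys for TRAIL differed in how many lines passed background. TNFRSF10C (DcR1) was at 4.51 to 6.11 and above background in all lines but U-HO1, while of its other 3 probe sets 2 were below background in all lines. TNFRSF10D (DcR2) was above background in L-540 alone, at 5.87 and, at a second probe set, 5.03, against 2.91 to 4.51 in the other lines. TNFRSF11B, which encodes the soluble decoy osteoprotegerin, was at 2.70 to 3.36 and below background everywhere. The 4 membrane TRAIL receptors lie side by side in the genome with no protein-coding gene between them. Only for TNFRSF10D, with L-540, did all probe sets above background in some line share the highest line.

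DR3, encoded by TNFRSF25, is a death-domain receptor of lymphocytes. TNFRSF25 was at 7.13 in HDLM-2, 6.15 in L-1236, 6.0 in U-HO1, 5.60 in KM-H2, 5.16 in SUP-HD1, 4.71 in L-540 and 4.65 in L-428. All lines but L-428 were above background, and HDLM-2 was the highest line at all 5 probe sets of the gene, at 6.31 to 7.13. HDLM-2 and U-HO1 were above background at all 5, whereas L-1236 was below it at the other 4, at 3.06 to 5.56, and KM-H2, L-540 and SUP-HD1 at some of them. TNFSF15 (TL1A), the ligand of DR3, was at 6.34 in KM-H2 and at 3.03 to 3.58 in the others, but its second probe set was below background in all lines, KM-H2 included. TNFRSF21 (DR6) was at 6.55 in L-428, 6.37 in KM-H2, 5.85 in U-HO1 and 4.86 in SUP-HD1, and below background in HDLM-2, L-1236 and L-540 at 3.66 to 4.65. A second probe set of TNFRSF21 was below background in all lines.

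**Figure D4:**
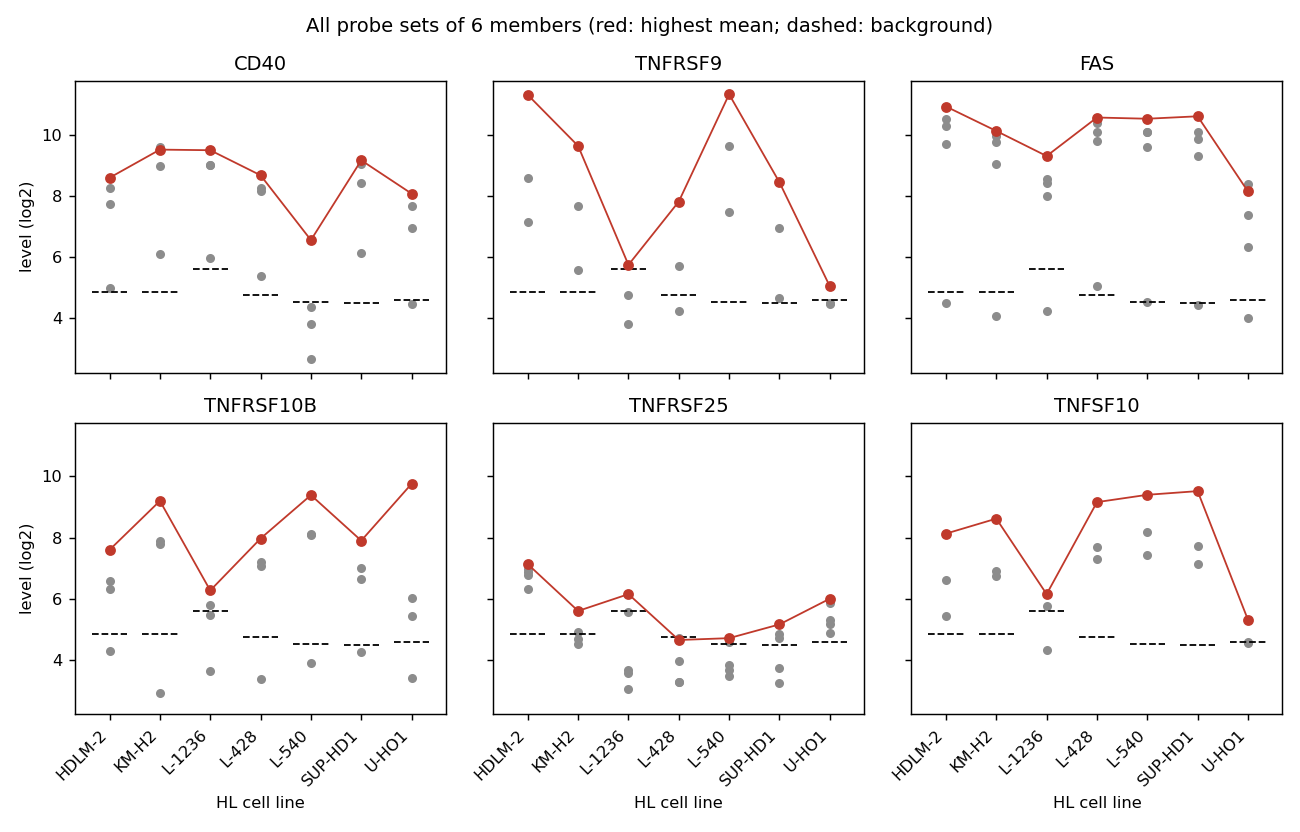
Log2 level of every probe set of 6 members in the 7 HL cell lines, with the probe set used for the level, that of the highest mean, joined in red, the others in grey, and the background of each array dashed. L-540 is lowest at all 4 probe sets of CD40 and HDLM-2 highest at all 5 of TNFRSF25, while the probe sets of TNFRSF10B disagree on U-HO1, at 9.76 for the one in red and 6.04 or lower for the others.

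The receptors of BAFF, a survival factor of B cells, were close to background. TNFRSF13C (BAFF-R) was above background in all lines, at 6.04 in L-1236 and 4.81 to 5.24 in the others. TNFRSF13B (TACI) was at 4.54 to 5.60 and above background in all lines but L-1236 and U-HO1, and TNFRSF17 (BCMA), typical of plasma cells, was at 2.58 to 3.52 and below background in all. TNFSF13B, which encodes BAFF, was at 7.96 in KM-H2, 6.83 in U-HO1, 6.62 in HDLM-2, 5.59 in L-428, 5.56 in L-540, 4.19 in L-1236 and 4.10 in SUP-HD1. The last 2 lines were below background, and KM-H2 was at least 11.1-fold SUP-HD1. The second TNFSF13B probe set also had KM-H2 highest, at 7.47, and L-1236 and SUP-HD1 below background.

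RANK, encoded by TNFRSF11A, is the receptor that drives osteoclast formation. TNFRSF11A was at 9.81 in U-HO1, 9.49 in HDLM-2, 9.37 in SUP-HD1, 9.36 in L-1236, 8.47 in L-428, 7.89 in L-540 and 6.67 in KM-H2. All lines were above background, the first 4 lay within the technical spread, and U-HO1 was 8.82-fold KM-H2. KM-H2 was lowest at the second probe set too, at 5.43, where HDLM-2 was highest at 8.61. TNFSF11, the gene of the ligand RANKL, was at 2.81 to 3.97 and below background in every line, so RANK was read without its ligand in all 7.

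The remaining receptors have ligands outside the pairs described. TNFRSF12A (Fn14), the receptor of TWEAK, was at 5.17 in U-HO1 and 6.53 to 7.0 in the other lines, above background in all. EDAR, a receptor of ectodysplasin in skin appendages, was just above background in KM-H2 at 4.91, in SUP-HD1 at 4.86 and in U-HO1 at 5.15. TNFRSF19 (TROY) passed background only in U-HO1, where it stood at 4.98, and its other 2 probe sets in no line. NGFR, the p75 neurotrophin receptor, was at 3.11 to 4.15, and EDA2R at 4.17 to 5.38, both below background throughout.

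Receptor and ligand pairs were then read line by line as above or below background. Of 29 known pairs, 25 had both genes measured, which gave 175 combinations of a pair and a line. Both genes were above background in 63 of these, the receptor alone in 41, the ligand alone in 48 and neither in 23. A gene in several pairs counts in each, TNFSF10 in 5 of them, so the combinations are not independent. No share of complete pairs over all genes was computed, so these counts are not read as particular to the members. Both genes were above background in at least 1 line for 19 pairs and in no line for 6. In all 7 lines this held for 2 pairs, TNFRSF10B with TNFSF10 and TNFRSF14 with LTA. For the first of these the other TNFSF10 probe sets were not above background in U-HO1. At a further TNFRSF10B probe set L-1236 was below it, at 5.47. The 6 without a shared line were those of FAS with FASLG, TNFRSF11A with TNFSF11, TNFRSF11B with TNFSF10 or TNFSF11, TNFRSF17 with TNFSF13B and TNFRSF18 with TNFSF18.

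**Figure D5:**
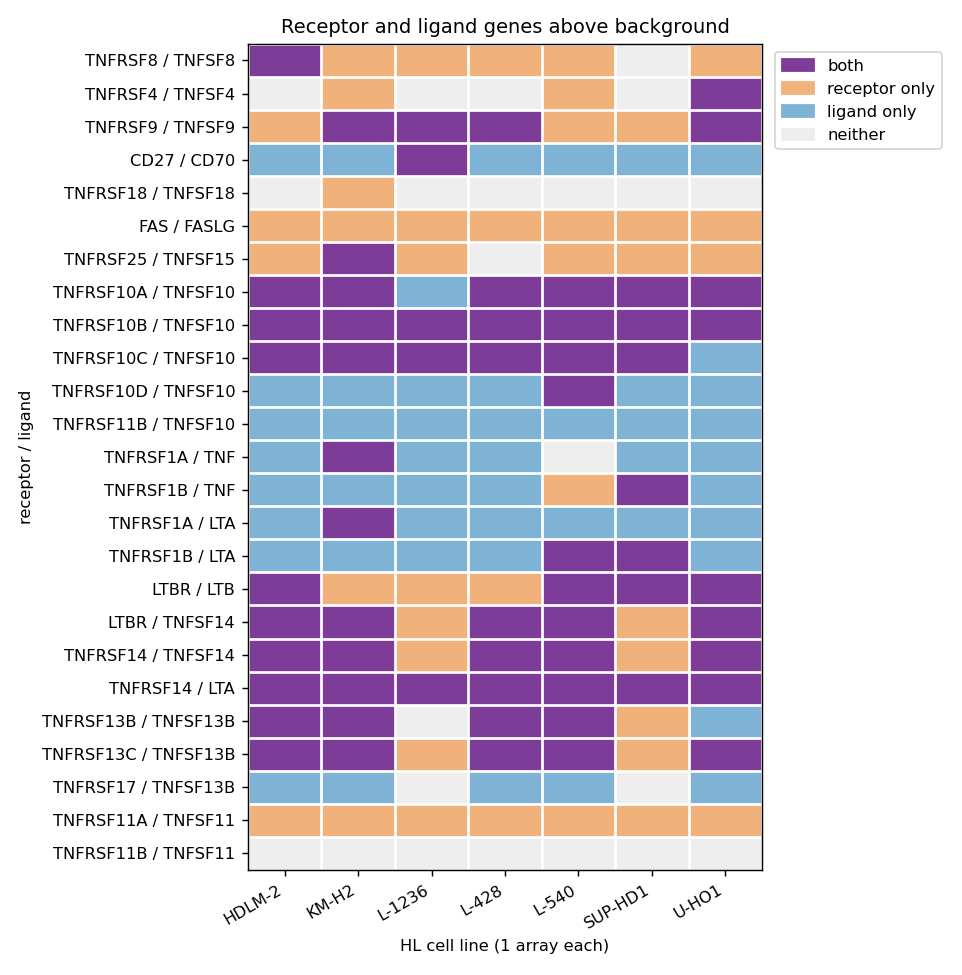
State of 25 receptor and ligand pairs (y axis) in each of the 7 HL cell lines (x axis), by whether both genes, the receptor alone, the ligand alone or neither was above the background of the array. Both genes are above background in 63 of the 175 fields, most often in KM-H2, with 12 of 25 pairs, and least often in L-1236, with 5. Of all genes 54.1% were above background in KM-H2 and 43.5% in L-1236, the array with the highest background.

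In HDLM-2, 22 of 41 members (53.7%) were above background, against 53.4% of all genes, and 10 of 25 pairs had both genes above it. It was the only line with the CD30 pair complete. Of the 23 members with a range of 2 or more, HDLM-2 was highest for 4 (LTA, LTB, TNFRSF25 and FAS) and lowest for CD70. A lowest line is named here only where no other line was below background, since levels below it have no order. A highest line is named even where the next line lay within the technical spread, which leaves the place unsettled. This held for TNFRSF9, TNFRSF10A, TNFRSF10B, TNFRSF11A, TNFRSF21, FAS, CD40, TNFSF10, TNFSF14 and CD70. That spread is pooled and belongs to 1 reading, so a difference between lines carries more. Against the wider spreads of U-HO1, 0.82, and L-1236, 0.67, the places of TNFSF9 and TNF were also unsettled, with gaps of 0.67 and 0.58. KM-H2 had 27 members (65.9%) above background, against 54.1% of all genes, and the most complete pairs, 12. KM-H2 was highest for 7 members (TNFRSF1A, TNFRSF4, CD40, TNF, TNFSF13B, TNFSF15 and CD70) and lowest for TNFRSF11A, and was the only line with the pairs of TNFRSF1A and of TNFRSF25 complete.

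L-1236 had 18 members (43.9%) above background, against 43.5% of all genes, and 5 complete pairs, among them that of CD27 and CD70, complete in no other line. It was highest for CD27 and lowest for TNFRSF10A and TNFRSF10B. L-428 had 21 members (51.2%) above background, against 56% of all genes, and 9 complete pairs. L-428 was highest for TNFRSF21 and TNFSF14. For TNFRSF25 it stood at 4.65, below background, with L-540 at 4.71. The probe sets of TNFRSF25 also differed on the lowest line, so none is named.

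In L-540, 23 members (56.1%) were above background, against 57.9% of all genes, and 11 pairs were complete. L-540 was highest for 4 receptors (TNFRSF8, TNFRSF9, TNFRSF1B and TNFRSF10D) and lowest for CD40, TNF and LTA. SUP-HD1 had 21 members (51.2%) above background, against 58.8% of all genes, and 7 complete pairs. It was highest for TNFSF10 and lowest for TNFRSF8. U-HO1 had 25 members (61%) above background, against 57.4% of all genes, and 9 complete pairs, among them that of TNFRSF4 and TNFSF4, complete in no other line. That pair rests on the _x_at probe set of TNFRSF4, and KM-H2 missed it with TNFSF4 at 4.80 against a background of 4.84. U-HO1 was highest for TNFSF9, TNFRSF10A, TNFRSF10B and TNFRSF11A and lowest for TNFRSF9, FAS and TNFSF10. These places are those of the probe set with the highest mean. For TNFRSF10A, TNFRSF10B, TNFRSF11A, FAS, CD40, LTB, TNFSF10 and TNFSF14 a further probe set, above background in at least 1 line, had another highest line. For TNFRSF9, TNFRSF10B and TNFSF10 such a probe set had another lowest line.

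Where members were read by several probe sets, these often disagreed on the order of the lines. Of 15 members with at least 2 probe sets above background in at least 1 line, all such probe sets shared the highest line in 5, the lowest line in 7 and both in 1, which was TNFRSF10D. No share over all genes with several probe sets is given, so these counts are not read as particular to the members. The SD between probe sets, taken only over those with a mean level above the mean background, was 0.14 for TNFSF13B with both of its probe sets, 0.66 for TNFRSF9 with all 3 and 0.63 for TNFRSF10B with 3 of 4. It was 0.25 for LTBR, 0.26 for TNFRSF25 and 0.32 for FAS, but over 2 of 4, 2 of 5 and 4 of 5 probe sets, so it leaves out readings that differ, such as those of TNFRSF25 in L-1236. A single line stood apart for 8 of the 34 members (23.5%), by the gap to the next line over the whole range, against 12.5% of all genes so filtered.

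Genes that act just below the receptors were read from a separate list. Of 18 adaptors, caspases and regulators, 15 were measured, all 15 above background in at least 1 line, 10 in all 7, and 8 with a range of 2 or more. Over all genes these shares were 73.3%, 34.6% and, of those above background in at least 1 line, 50.1%, so the last count is near the share of all genes. The median range was 2.03, against 2.00 over all genes. BIRC2, an inhibitor of apoptosis bound to TNF receptor complexes, was at 2.58 in SUP-HD1, below background, and at 8.51 to 10.06 in the other 6 lines. TRAF3, an adaptor that restrains non-canonical NFkB signalling, was at 2.87 in U-HO1, below background, and 6.04 to 9.12 elsewhere. TRAF5, another adaptor, was at 2.91 in KM-H2, below background, and 5.41 to 8.41 elsewhere. TRAF1, an NFkB target that binds CD30 and 4-1BB, was at 4.97 in L-1236, below background there, and 7.12 to 9.17 elsewhere. Of 4 further superfamily genes 3 were measured, and TNFSF13 (APRIL), EDA and RELT each had a range under 2, at 1.91, 1.92 and 1.27.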

How the data were processed

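Transcripts of 7 HL cell lines were profiled with 1 Affymetrix HG U133 Plus 2.0 array per line. The authors made the deposited log2 values by RMA background correction and quantile normalization. The submitters' processing notes name RMA, affy and limma, with versions not given in the sources used here. All values, for 54675 probe sets and from 1.99 to 14.17, were used as deposited. No source names a genome build for the arrays. No value was missing, and the number of unused columns was 0. Quantile normalization aims to give all arrays the same distribution, so a shift of all genes in a line cannot be seen. The deposited values kept a narrower scale in L-1236, with an SD over probe sets of 1.88 against 2.15 to 2.17 elsewhere. Levels of L-1236 are thus not fully on the scale of the other lines.

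Probe sets were named with the platform annotation, which gave 41097 of them a single symbol, left 11777 without any and gave several to 1801. Of the single symbols 41043 were updated through the RefSeq gene table of GRCh38.p14, which also gave neighbouring genes. A gene was read from the probe set that had its highest mean level, and other probe sets of a member are given where they bear on a statement. The background of an array is the 95th percentile over 107 probe sets of olfactory receptors. A fold against a level below background is a lower bound, taken against the background of that array. The technical spread is the SD between probe sets of a gene within a line, pooled over 13397 probe sets of 5050 genes, and it can also hold differences between transcripts. The number of arrays limits the precision, and no test between lines could be made. The members, the 29 receptor and ligand pairs, the signalling and marker lists and the limits were chosen with earlier results of these data known. Every member with a value is named. Of the other lists up to 4 genes of the largest range are named, apart from the B-cell markers, named after their values were seen.

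RIPK1, TRAF2, BIRC3, CD33 and TNFSF12 were not analysed here. Promoter windows are the first listed RefSeq window of each gene. The alternatives took the mean of all probe sets, the probe set that varied most, no probe sets ending in _x_at or _s_at, centring on the array median, quantile normalization again, background at the 90th or 99th percentile, a limit of 3 for ranges, levels raised to background, L-1236 and U-HO1 left out, and each line left out in turn. The range and single-line rules were also run on simulated data with equal noise on every array, smaller than the technical spread. That simulation held no arrays like U-HO1 and L-1236, so it does not bear on results that rest on them. Analyses used Python 3.11.15, pandas 2.3.3 and numpy 2.4.6.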

Additional observations from a re-analysis of the deposited data

Results flagged for a closer look

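A single line stood apart from the other 6 for 8 members, by Dixon's criterion, in which the gap to the next line is divided by the range over the 7 lines. Chance alone puts about 1 in 20 groups past this value, and 12.5% of all genes above background in at least 1 line passed it. The lines are different tumours and not replicates, so a line that stands apart need not be an error.

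In L-1236 the TNFRSF10A level of 3.90 was the lowest, with SUP-HD1 next at 6.16. The L-1236 level was below the background of 5.59, so the gap is certain only down to that value, close to the technical spread. L-1236 also stood apart as the highest line for CD27, at 8.07 against 4.59 in U-HO1, and for TNFRSF13C, at 6.04 against 5.24 in KM-H2. HDLM-2 was set apart by LTB, at 9.79 against 5.59 in U-HO1, and by TNFSF8, at 5.29 against 4.46 in U-HO1. KM-H2 was set apart by TNFSF15, at 6.34 against 3.58 in L-428. L-540 was far under the others for TNF, at 3.82 against 6.30 in SUP-HD1. U-HO1 was lowest for TNFRSF12A, at 5.17 against 6.53 in KM-H2. For TNFRSF10A, TNFSF8, TNFSF15 and LTB no further probe set put the same line apart by this criterion. The causes were not tested.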

How the results depend on the processing

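The number of members with a range of 2 or more, 23, stayed within 1.5 times under every alternative, at 17 with a limit of 3 and 18 to 26 under the others. Members above background in all 7 lines, 12, fell to 7 with the mean of all probe sets and to 7 with the 99th percentile as background, and complete receptor and ligand pairs, 63, fell to 40 with the 99th percentile. With each line left out in turn these counts ran from 12 to 13 and from 51 to 58, members with a range of 2 or more from 19 to 23, and members above background in at least 1 line from 31 to 34. The range fell under 2 without a single line for TNFRSF1A (1.08 without KM-H2 and 1.95 without SUP-HD1), TNFRSF1B (1.79 without L-540), TNFRSF4 (1.60 without KM-H2), TNFRSF10D (1.60 without L-540), TNFRSF11A (1.92 without KM-H2), TNFRSF25 (1.5 without HDLM-2), FAS (1.62 without U-HO1) and TNFSF15 (0.55 without KM-H2), beside those given with their genes. Without L-1236 and U-HO1 it also fell under 2 for TNFRSF10B, at 1.79. Applying quantile normalization again raised L-1236 by a median of 0.10 over all genes and 0.17 over the members, and brought TNFRSF12A to a range of 2.42. Of 1400 recomputed levels 163 moved by more than the technical spread, and of 569 ranges 89 did. These totals join unlike alternatives: 81 of 287 levels moved with the mean of all probe sets and 0 of 287 with centring on the array median. Members with 1 probe set could not move when another probe set or the mean was taken. Without probe sets ending in _x_at or _s_at 36 members had a value. No paired analysis was possible because no line has a second array. Signal over background limits low genes most in L-1236.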
